A study of Mus musculus with 8 samples.

Results

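The core loop of the circadian clock was followed through 10 genes in 8 mouse livers. These were Arntl, Clock, Npas2, Per1, Per2, Per3, Cry1, Cry2, Nr1d1 and Nr1d2, taken by symbol as the listed members of the loop, 10 of the 49585 genes counted. The livers came from males of 3 genotypes, 3 LP+/+, 2 LPfl/+ and 3 LP245/+, placed at 21 days of age on a high-fat, choline-deficient (HFCD) diet, which loads the liver with lipid, and kept on it for 3 months. LPfl/+ mice carried Alb-CreTG and Trp53fl/+, so that Cre deletes one Trp53 allele, and LP245/+ mice carried Alb-CreTG and Trp53wm-R245W/+, an allele that makes wild-type p53 until Cre converts it to the R245W missense form. By their labels the LP+/+ mice were Alb-Cre0 and held an allele that had not been recombined, Trp53fl/+ in replicates 1 and 2 and Trp53wm-R245W/+ in replicate 3. The study's methods allow controls with or without the transgene, and its definition of LP+/+ includes it. If the labels hold, each comparison with LP+/+ also differs in the transgene. The albumin promoter limits Cre to the hepatocyte and bile duct lineages, and Kupffer, endothelial and stellate cells are not targeted. RNA was read from whole, flash-frozen tissue. The hour at which each liver was taken is not given in the sources used here.

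The clock of a liver cell is a feedback loop. ARNTL (also called BMAL1) pairs with CLOCK or with its close relative NPAS2, binds E-box sequences and switches on the Per, Cry and Nr1d genes. The PER and CRY proteins then inhibit that pair, while REV-ERBα and REV-ERBβ, the products of Nr1d1 and Nr1d2, bind RORE sequences and repress Arntl, Npas2 and Cry1, at sites where the ROR receptors activate. In the liver of mice kept under light and dark, Arntl and Npas2 messages are known to crest around the end of the dark phase, Nr1d1 around the middle of the light phase, Dbp, Nr1d2, Per3 and Per1 later in the light, Per2 around the onset of dark and Cry1 late in the dark. A single liver therefore carries a relative phase in the balance of these messages, high Arntl with low Nr1d1 at one side of the cycle and the reverse at the other. Feeding, glucocorticoids and body temperature can also shift the liver clock.

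Total counts ranged from 26304526 to 31370714 per liver, and each of the 10 genes was among the 16496 that passed the filter on low counts. Liver identity was checked by marker genes, of which Tat is also counted below among the glucocorticoid-responsive genes. Hepatocyte markers summed to between 97538 and 143927 CPM (counts scaled to the size of each library) with Alb as the most abundant, against 231 to 378 for Kupffer cells, 431 to 701 for endothelial cells, 296 to 408 for stellate cells, 23.4 to 40.2 for bile duct and 2.12 to 3.44 for lymphocytes, and no marker was at 0 in all livers. The library numbers in the labels fall into 2 series. The first series holds the 3 LP245/+ livers and LP+/+ replicates 2 and 3, and the second holds both LPfl/+ livers and LP+/+ replicate 1. The first principal component of all tested genes, with 31.1% of the variance, separated the series, from -42.6 to -26.7 in the second and from 15.1 to 28.2 in the first, so that LP+/+ replicate 1 stood with the LPfl/+ livers and apart from the other LP+/+ livers. No series holds both LPfl/+ and LP245/+, so the only link between that pair across the series is the LP+/+ group, with 1 liver in the second and 2 in the first.

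The promoters of the loop genes are shown where they hold the letters that the loop is known to use. A link between these letters and the values of the genes over the livers was not tested. RefSeq windows of 250 bases before to 50 bases after a start (GRCm38.p6) matched 9 of the 10 genes in 13 windows. Per2 had no window and was not searched. Both strands were searched for the E-box letters CACGTG, the RORE letters TAGGTCA or TGGGTCA, and the D-box letters TTATGTAA or TTACGTAA, the D-box being bound by DBP, TEF and HLF. None of the matches overlapped. Of all 32851 windows, 7.15% held the E-box, 6.45% the RORE and 1.06% the D-box letters. Matches, in capitals, were found in 4 windows of the members, each written in the direction of its gene. They were 1 RORE in Arntl (chr7:113207261-113207560, plus strand, at position 31 counted from the start), 1 E-box in Per1 (chr11:69098699-69098998, plus strand, at position -166), 2 D-boxes in Per3 (chr4:151044616-151044915, minus strand, at positions -205 and -158) and 1 E-box in Cry1 (chr10:85185005-85185304, minus strand, at position -60).
Arntl: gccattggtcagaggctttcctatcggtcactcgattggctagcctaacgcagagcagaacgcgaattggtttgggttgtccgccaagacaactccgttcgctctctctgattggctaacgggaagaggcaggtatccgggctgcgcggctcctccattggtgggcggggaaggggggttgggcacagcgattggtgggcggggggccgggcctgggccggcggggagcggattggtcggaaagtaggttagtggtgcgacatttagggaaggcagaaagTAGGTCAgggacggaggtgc
Per1: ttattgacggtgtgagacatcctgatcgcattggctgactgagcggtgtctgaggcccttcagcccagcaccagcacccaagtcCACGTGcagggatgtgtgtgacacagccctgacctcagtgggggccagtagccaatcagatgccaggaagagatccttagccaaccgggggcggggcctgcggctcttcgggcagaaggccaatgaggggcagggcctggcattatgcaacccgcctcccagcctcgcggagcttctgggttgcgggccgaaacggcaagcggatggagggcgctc
Per3: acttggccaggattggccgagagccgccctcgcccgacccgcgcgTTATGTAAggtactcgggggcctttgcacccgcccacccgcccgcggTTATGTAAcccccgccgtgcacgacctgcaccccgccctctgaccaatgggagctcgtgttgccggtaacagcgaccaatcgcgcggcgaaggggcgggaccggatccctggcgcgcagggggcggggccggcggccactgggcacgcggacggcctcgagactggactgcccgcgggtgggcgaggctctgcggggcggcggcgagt
Cry1: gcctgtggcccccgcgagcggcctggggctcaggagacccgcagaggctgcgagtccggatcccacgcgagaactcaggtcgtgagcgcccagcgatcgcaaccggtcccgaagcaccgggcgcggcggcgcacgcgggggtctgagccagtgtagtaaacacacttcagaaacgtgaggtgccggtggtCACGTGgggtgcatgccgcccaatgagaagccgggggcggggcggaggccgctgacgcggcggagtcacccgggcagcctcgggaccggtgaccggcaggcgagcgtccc
A match is a run of letters in these windows and not a measured binding site.

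The activating side of the loop differed between livers mainly in Arntl and Npas2. Arntl (ENSMUSG00000055116.8, chr7:113207465-113314126 of GRCm38, plus strand), the obligate partner of the activating pair, was at 37.7, 18.9 and 23.2 CPM in LP+/+ replicates 1, 2 and 3, at 26.8 and 29.4 in LPfl/+, and at 8.37, 17.7 and 12.5 in LP245/+. LP+/+ replicate 1 was the highest of the 8 and LP245/+ replicate 1 the lowest, 4.51-fold apart. All 3 LP245/+ livers were below every LP+/+ and LPfl/+ liver. Npas2 (ENSMUSG00000026077.15, chr1:39193731-39363236, plus strand), the alternative partner of ARNTL, was at 11.1, 1.82 and 3.61 CPM in LP+/+, at 5.76 and 8.17 in LPfl/+, and at 1.4, 2.84 and 0.895 in LP245/+. It had the widest range of the 10, 12.5-fold, and LP+/+ replicate 2 lay inside the range of LP245/+ while LP+/+ replicate 1 lay above both LPfl/+ livers. Clock (ENSMUSG00000029238.11, chr5:76209868-76304792, minus strand), the usual partner, was nearly level at 123, 104 and 122 CPM in LP+/+, 123 and 132 in LPfl/+, against 107, 113 and 110 in LP245/+, a range of 1.27-fold.

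Among the period genes, whose products carry the repression, Per3 varied most. Per3 (ENSMUSG00000028957.12, chr4:151003652-151044665, minus strand) was at 2.21, 11.5 and 4.93 CPM in LP+/+, at 5.30 and 4.03 in LPfl/+, and at 24.3, 10.4 and 15.7 in LP245/+. It was lowest in LP+/+ replicate 1, where Arntl was highest, and highest in LP245/+ replicate 1, where Arntl was lowest, 11-fold apart. LP+/+ replicate 2 was above LP245/+ replicate 2, so these groups overlapped. Per1 (ENSMUSG00000020893.17, chr11:69095217-69109960, plus strand), which also responds quickly to hormones and feeding, was at 7.51, 10.3 and 15.4 CPM in LP+/+, 10.7 and 4.39 in LPfl/+, compared with 22.9, 14.7 and 12.7 in LP245/+. Its lowest value was in LPfl/+ replicate 2, its range was 5.23-fold, and LP+/+ replicate 3 was above LP245/+ replicates 2 and 3. Per2 (ENSMUSG00000055866.9, chr1:91415982-91459324, minus strand) was at 14.9, 19.5 and 16.3 CPM in LP+/+, 14.1 and 14.9 in LPfl/+, against 28.8, 23.4 and 21.8 in LP245/+. Its range was narrower, 2.04-fold, with the 3 LP245/+ livers above all others.

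The cryptochromes, the stronger repressors of the pair, behaved differently from each other. Cry1 (ENSMUSG00000020038.10, chr10:85131700-85185064, minus strand) was at 21.1, 12.4 and 14.8 CPM in LP+/+, 16.5 and 14.9 in LPfl/+, compared with 8.44, 9.55 and 8.77 in LP245/+. Its livers lined up as for Arntl at the ends, LP+/+ replicate 1 at the top and the 3 LP245/+ livers below all others, over a 2.5-fold range. Cry2 (ENSMUSG00000068742.11, chr2:92403646-92434043, minus strand) was at 16.5, 20.4 and 17.5 CPM in LP+/+, 21.6 and 20.7 in LPfl/+, against 20.4, 21.8 and 18.7 in LP245/+, a range of 1.32-fold in which LP245/+ overlapped both other groups.

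Of the REV-ERB genes, Nr1d1 ran opposite to Arntl at both ends, and Nr1d2 did so less closely. Nr1d1 (ENSMUSG00000020889.11, chr11:98767932-98775333, minus strand) was at 5.2, 31.6 and 25.4 CPM in LP+/+, at 16.3 and 10.5 in LPfl/+, and at 62.7, 41.1 and 36.0 in LP245/+. LP+/+ replicate 1 was the lowest and LP245/+ replicate 1 the highest, 12.1-fold apart, and all 3 LP245/+ livers were above the others. Thra, a thyroid hormone receptor gene on the opposite strand, overlaps the 3′ end of Nr1d1 over 1075 bases (chr11:98767932-98769006), and the libraries were stranded while the strand setting of the counting is not given in the sources used here. Thra was at 15.4, 12.6 and 13.9 CPM in LP+/+, 14.4 and 12.5 in LPfl/+, compared with 11.5, 12.1 and 9.77 in LP245/+. It was highest in LP+/+ replicate 1, where Nr1d1 was lowest, and lowest in the LP245/+ livers, where Nr1d1 was highest, and the part of the overlap in either gene was not tested. Nr1d2 (ENSMUSG00000021775.10, chr14:18204054-18239127, minus strand) was at 45.3, 76.9 and 75.9 CPM in LP+/+, 79.5 and 75.8 in LPfl/+, against 116, 80.1 and 124 in LP245/+. It was lowest in the same LP+/+ liver as Nr1d1, over a 2.74-fold range. LP245/+ was above both other groups, by a narrow margin in replicate 2. The highest liver was LP245/+ replicate 3, and the LPfl/+ livers were near LP+/+ replicates 2 and 3. As the samples were bulk tissue, a lower value of any of these genes can mean fewer cells that express it or less RNA per cell.

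**Figure D1:**
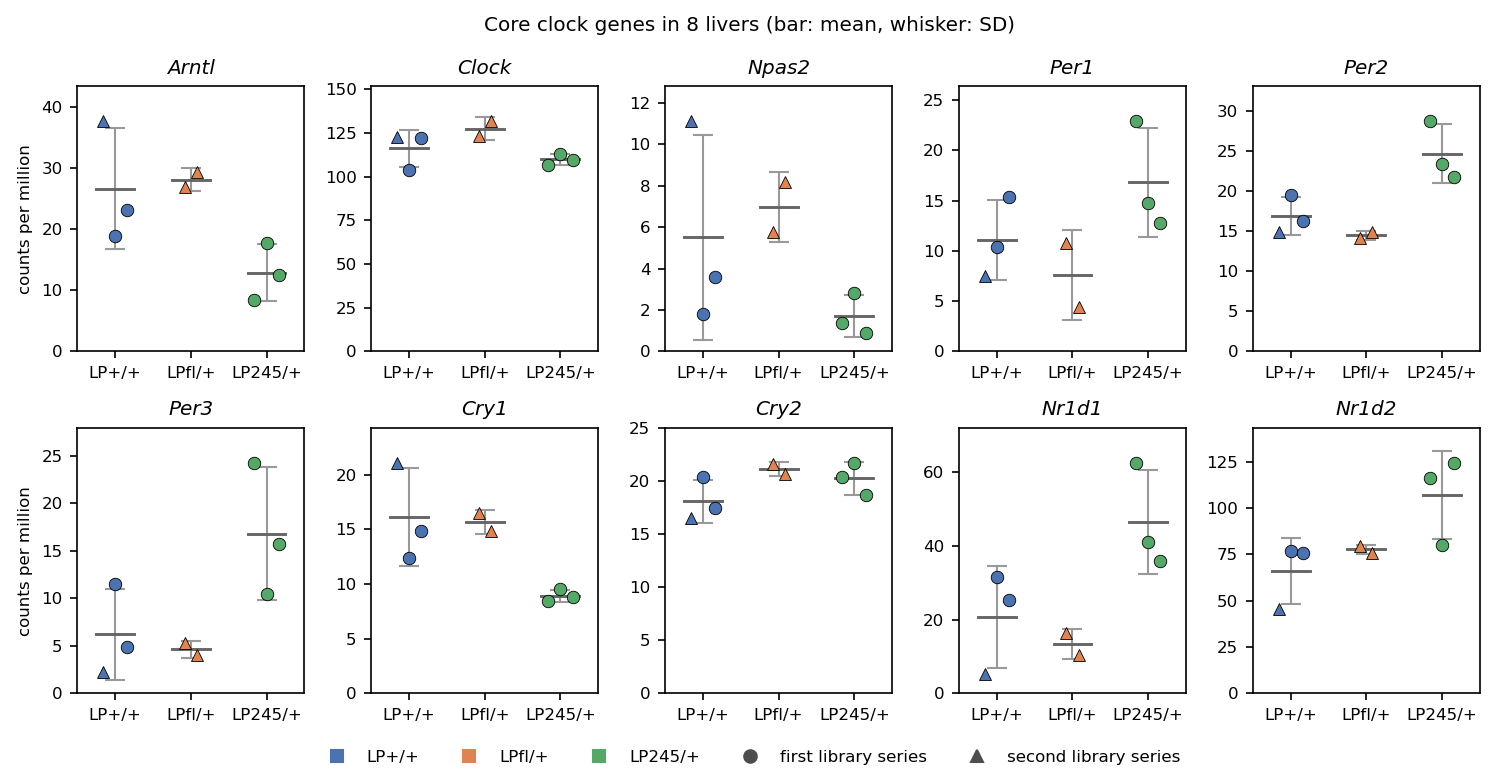
CPM (vertical axis, linear, from 0) of the 10 core clock genes in each liver, by genotype, with circles for the first and triangles for the second library series, bars for group means and whiskers for SD (n = 3, 2 and 3). Arntl and Cry1 sit lower and Per2 and Nr1d1 higher in the 3 LP245/+ livers than in any other liver, and the LP+/+ triangle lies at an extreme for Arntl, Npas2, Per3, Cry1, Cry2, Nr1d1 and Nr1d2.

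Per kilobase of exon, so that levels can be set between genes, Nr1d2 was the most abundant at 15.6 ± 4.63 CPM per kilobase (mean ± SD, n = 8), followed by Nr1d1 at 9.30 ± 6.04 and Clock at 8.50 ± 0.711. Cry1 (3.98 ± 1.31), Per2 (3.28 ± 0.884), Cry2 (3.12 ± 0.306), Arntl (2.9 ± 1.26) and Per1 (2.19 ± 0.997) formed the middle, and Per3 (1.02 ± 0.769) and Npas2 (0.930 ± 0.759) were the lowest. Neighbours in this order differed by more than the larger of their SDs only between Nr1d2 and Nr1d1, between Clock and Cry1 and between Per1 and Per3. On this scale Npas2 was below Clock in all 8 livers, and Nr1d1, second in the mean, ranged over more of the scale than any other member.

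Livers of one genotype were far apart in some of these genes. The SD of log2 CPM within genotypes was 0.98 for Npas2, 0.95 for Nr1d1 and 0.84 for Per3, which placed them at the 98.1, 98.0 and 97.0 percentiles of all tested genes, whose median SD was 0.22. Per1 (0.59) stood at the 90.2 percentile, Arntl (0.47) at 83.1, Nr1d2 (0.35) at 71.7 and Cry1 (0.26) at 57.5. Per2 (0.18), Cry2 (0.12) and Clock (0.10) were below the median, at the 40.6, 19.9 and 10.2 percentiles. The genes with the widest spread were those with the widest range over all livers, and Per2 combined a small spread within genotypes with separate values in LP245/+.

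In LP245/+ compared with LP+/+, the activators Arntl and Npas2 and the repressor Cry1 had lower means, and the Per and Nr1d genes had higher ones. Of the 10 genes, 0 passed the cutoff, which required a log2 fold change of 1 or more in either direction with an adjusted p up to 0.05 (edgeR's quasi-likelihood test with Benjamini-Hochberg adjustment), where 0.00606% of all tested genes did, and 0 passed with DESeq2, where 0.0607% did. At an unadjusted p below 0.05, 7 of 10 differed, against 5.93% of all genes. Arntl, Npas2 and Cry1 were the lower ones and Per2, Per3, Nr1d1 and Nr1d2 the higher ones. The log2 fold change was -0.85 for Cry1 (SE 0.18, unadjusted p = 0.00088), 0.54 for Per2 (SE 0.14, unadjusted p = 0.0025), -1.05 for Arntl (SE 0.29, unadjusted p = 0.0050) and 0.69 for Nr1d2 (SE 0.22, unadjusted p = 0.0096). For the members with the widest spread it was 1.43 for Per3 (SE 0.50), -1.69 for Npas2 (SE 0.62) and 1.17 for Nr1d1 (SE 0.50), and for Per1, Cry2 and Clock it was 0.60, 0.16 and -0.08 (SE 0.35, 0.11 and 0.10). Without LP+/+ replicate 1 the log2 fold change was -0.67 for Npas2, 0.71 for Nr1d1 and 0.39 for Per1, without LP+/+ replicate 2 it was 2.22 for Per3, and without LP245/+ replicate 1 it was 0.30 for Per1. The adjusted p from edgeR was 0.79 for Arntl and Cry1 and 0.83 for Nr1d1. For Cry1 it was 0.0234 with DESeq2 and 0.0264 with edgeR without the filter on low counts, where the log2 fold change of -0.86 missed the fold limit, and from 0.351 to 0.998 under the other alternatives. In 5 members, Arntl, Per2, Cry1, Nr1d1 and Nr1d2, no LP245/+ liver overlapped an LP+/+ liver, against 11.6% of all genes. The exact two-sided permutation test of 3 against 3 livers gave p = 0.1 for each of these 5, which is the smallest it allows. Without the filter on low counts Arntl passed edgeR's cutoff, where 0.0661% of all genes did. The median absolute log2 fold change was 0.77 over the members and 0.14 over all genes tested.

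LPfl/+ livers, in which Cre deletes one Trp53 allele, were compared with the same LP+/+ livers. By edgeR's cutoff 0 members passed, with 0% of all genes past it, 0 members had an unadjusted p below 0.05, against 6.89% of all genes, and 0 passed with DESeq2, against 0.058%. The log2 fold change lay between -0.63 for Nr1d1 (SE 0.58) and 0.34 for Npas2 (SE 0.64), and that of Arntl was 0.08 (SE 0.32). With the series as a covariate these turned to 1.37, -0.68 and -0.43, and leaving out 1 liver at a time they ranged from -1.09 to -0.21 for Nr1d1, from -0.090 to 1.36 for Npas2 and from -0.13 to 0.42 for Arntl, so no direction is given for these genes. The same covariate turned Per1 and Per3, to 0.011 and 1.08. Clock and Cry2 were the 2 members without overlap, a share below the 24.9% of all genes that did not overlap between 2 and 3 livers. The margins were narrow. For Clock the nearest livers were LPfl/+ replicate 1 at 122.996 and LP+/+ replicate 1 at 122.921 CPM. For Cry2 they were LPfl/+ replicate 2 at 20.71 and LP+/+ replicate 2 at 20.41 CPM. The log2 fold changes were 0.13 for Clock (SE 0.11) and 0.22 for Cry2 (SE 0.12). Leaving out 1 liver at a time, these fold changes ranged from 0.047 to 0.18 for Clock and from 0.16 to 0.30 for Cry2. Within the second series, the log2 ratio of mean CPM in LPfl/+ to that in LP+/+ was 0.053 for Clock and 0.36 for Cry2. The median absolute log2 fold change was 0.23 over the members and 0.16 over all genes.

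Of the 3 genotype comparisons, LP245/+ against LPfl/+ had the largest median absolute log2 fold change over the members. Cry1, Cry2 and Nr1d2 differed more in LP245/+ compared with LP+/+. Again 0 members passed edgeR's cutoff, with 0% of all genes past it, while 7 members had an unadjusted p below 0.05, against 8.51% of all genes, with Arntl, Npas2 and Cry1 lower in LP245/+ and Per1, Per2, Per3 and Nr1d1 higher. In 9 members, all except Cry2, the groups did not overlap, against 25.4% of all genes. Arntl had a log2 fold change of -1.13 (SE 0.32), Npas2 of -2.03 (SE 0.67), Per3 of 1.85 (SE 0.59) and Nr1d1 of 1.80 (SE 0.60), and the smallest adjusted p among the members from edgeR was 0.362, for Per2 and Cry1 at log2 fold changes of 0.76 (SE 0.15) and -0.81 (SE 0.20). DESeq2 passed 1 member, Arntl, where it passed 0.417% of all genes, and without the filter on low counts edgeR passed 4, Arntl, Npas2, Per3 and Nr1d1, where it passed 0.403% of all genes. The median absolute log2 fold change was 0.97 over the members and 0.17 over all genes. The comparisons with LP+/+ share those 3 livers, and in this one every LP245/+ liver is of the first library series and every LPfl/+ liver of the second. With the series as a covariate the direction turned for 4 members, to log2 fold changes of 0.0099 for Npas2, -0.046 for Per3, -0.66 for Nr1d1 and -0.29 for Nr1d2. For Arntl and Cry1, the log2 ratio of mean CPM to that of LP+/+ of the same series was -0.71 and -0.61 in LP245/+. In LPfl/+ it was -0.43 for each gene. With the covariate, the differences of these genes between LP245/+ and LPfl/+ were therefore smaller than the values above.

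Over the 3 genotypes together, 0 members passed an adjusted p of 0.05 by edgeR, as did 0% of all genes, and 8 members, all except Clock and Cry2, had an unadjusted p below 0.05, against 7.79% of all genes. DESeq2 passed 3, Arntl, Per2 and Cry1, where it passed 0.468% of all genes. An exact permutation test over all 560 arrangements of the livers gave p = 0.0143 for Per2 and p = 0.0357 for Cry1, and p between 0.0786 and 0.186 for the other members. The smallest p it can give is 0.00357. In both genes the 3 LP245/+ livers did not overlap any other liver.

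**Figure D2:**
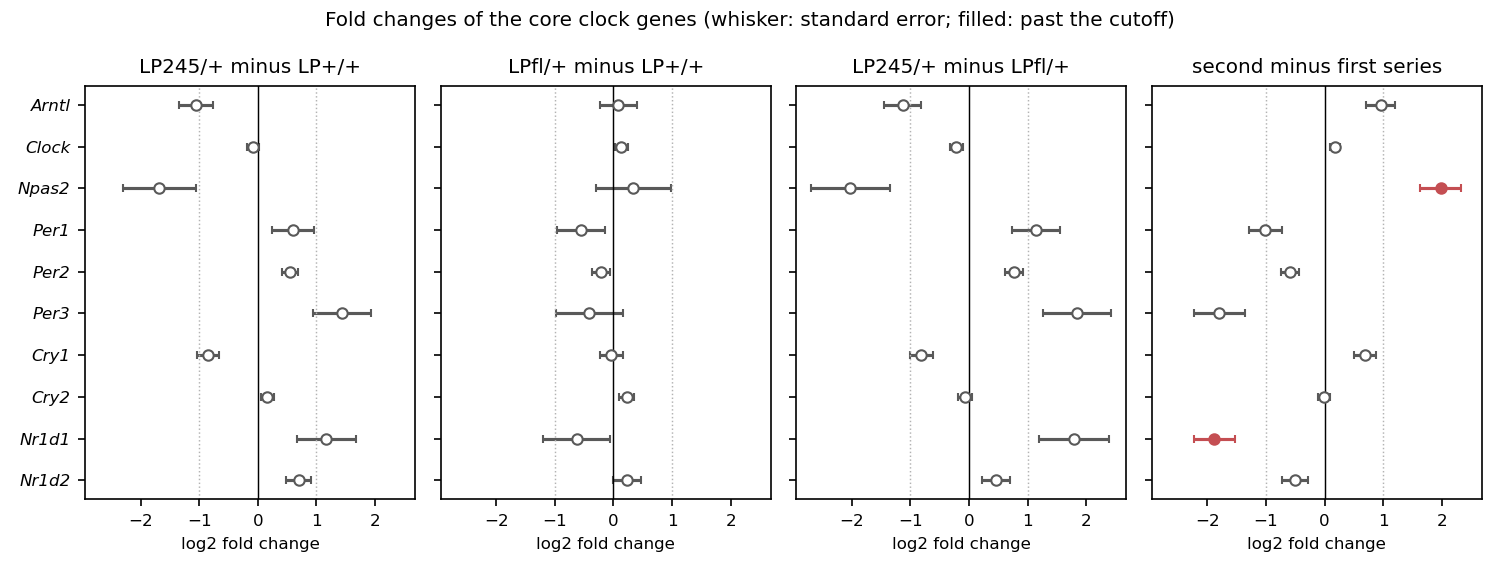
Log2 fold change of each core clock gene (horizontal axis) with its standard error from edgeR in the 3 genotype comparisons and between the library series, with dotted lines at a log2 fold change of 1 and -1 and filled points for genes past the cutoff. Only Npas2 (1.98) and Nr1d1 (-1.88) are filled, both between the library series, and with genotype as a covariate only Nr1d1 passes.

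The second library series was then set against the first, whatever the genotype. Here 2 members passed edgeR's cutoff, against 0.824% of all genes. Npas2 rose by a log2 fold change of 1.98 (SE 0.35, adjusted p = 0.0189) and Nr1d1 fell by 1.88 (SE 0.35, adjusted p = 0.0225) in the second series, which holds both LPfl/+ livers. With genotype as a covariate only Nr1d1 passed, where 1% of all genes did, and Npas2 had a log2 fold change of 2.03. Npas2 was at 5.76 to 11.1 CPM in the second series and at 0.895 to 3.61 in the first, and Nr1d1 at 5.2 to 16.3 and at 25.4 to 62.7. DESeq2 passed 4, Npas2, Per1, Per3 and Nr1d1, where it passed 1.43% of all genes. At an unadjusted p below 0.05 by edgeR, 8 members differed, against 14% of all genes, with Arntl, Npas2 and Cry1 higher and Per1, Per2, Per3, Nr1d1 and Nr1d2 lower in the second series. In 6 members, Arntl, Clock, Npas2, Per2, Cry1 and Nr1d1, no liver of one series overlapped a liver of the other, against 9.62% of all genes. The log2 fold change of Arntl was 0.96 (SE 0.25, adjusted p = 0.0872 by edgeR), that of Per3 -1.80 (SE 0.44, adjusted p = 0.0733 by edgeR), and the median absolute value was 0.83 over the members and 0.15 over all genes. Exact permutation over the 56 arrangements gave p = 0.0179, the smallest possible, for Npas2 and Nr1d1, p = 0.0357 for Clock, Per1, Per2 and Cry1, and larger values for the other 4. Without LP+/+ replicate 1, 0 members passed the cutoff between the series, and without LPfl/+ replicate 2 or LP245/+ replicate 2 only Npas2 did. Of the cell type markers, 2 hepatocyte and 3 endothelial genes were lower in the second series at an unadjusted p below 0.05 by edgeR and 0 of any list passed the cutoff, and their part in the clock differences was not tested.

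The same genes were compared within each series. In the first series alone, with 3 LP245/+ and 2 LP+/+ livers, 0 members passed edgeR's cutoff, against 0.0439% of all genes, and 6 had an unadjusted p below 0.05, against 6.59% of all genes. Arntl and Cry1 were lower in LP245/+ and Per2, Per3, Nr1d1 and Nr1d2 higher, with log2 fold changes of -0.72 for Arntl (SE 0.25), -0.62 for Cry1 (SE 0.14), 0.45 for Per2 (SE 0.15), 1.02 for Per3 (SE 0.39), 0.70 for Nr1d1 (SE 0.22) and 0.47 for Nr1d2 (SE 0.18). The directions were those of the comparison over all livers, and for all 10 members the log2 fold change was smaller in size than there. The second series, with 2 LPfl/+ livers and 1 LP+/+ liver, was read as log2 ratios of mean CPM in LPfl/+ to that in LP+/+. The ratios were -0.43 for Arntl, -0.68 for Npas2, 1.08 for Per3 and 1.37 for Nr1d1. These 4 had the opposite sign over all 3 LP+/+ livers. Between the LP+/+ livers themselves, the log2 ratio of CPM in replicate 1 to the mean CPM of replicates 2 and 3 was taken. It was 0.84 for Arntl, 2.04 for Npas2, -1.89 for Per3 and -2.46 for Nr1d1. The size of this gap inside one genotype was set beside edgeR's log2 fold change of LP245/+ against LP+/+, an unlike measure. Over all livers the gap was wider in all members except Arntl, Per2 and Cry1. Beside edgeR's log2 fold change in the first series alone, Per2 was the only exception.

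The members other than Cry2 moved with or against Arntl over the livers. On log2 CPM, Arntl correlated with Nr1d1 at r = -0.91 (exact permutation p = 0.00203, 0.00274 after Benjamini-Hochberg adjustment over 4 pairs) and rho = -0.98 (exact p = 0.000397, adjusted 0.00152). Without the 2 livers farthest from the median of Arntl, LP+/+ replicate 1 and LP245/+ replicate 1, r was -0.85. Arntl correlated with Per3 at r = -0.97 (exact p = 0.000174, adjusted 0.000694) and rho = -0.95 (exact p = 0.00114, adjusted 0.00152), with r = -0.95 without the same livers. With Npas2 it gave r = 0.90 (exact p = 0.00206, adjusted 0.00274) and rho = 0.95 (exact p = 0.00114, adjusted 0.00152), with r = 0.97 without them. Nr1d1 correlated with Nr1d2 at r = 0.83 (exact p = 0.0146, adjusted 0.0146) and rho = 0.86 (exact p = 0.0107, adjusted 0.0107), but at r = 0.60 without LP+/+ replicate 1 and LPfl/+ replicate 2, and at r = 0.62 without LP+/+ replicate 1 alone, so that this relation rests on that liver. No correlation within the 5 or the 3 livers of a series is given. The permutations exchanged livers between the series, although the livers share their series. Within the second series the order of Nr1d1 was the exact reverse of that of Arntl, and within the first it was the reverse except for LP245/+ replicates 2 and 3. Given only as descriptions, r with Arntl was 0.93 for Cry1, 0.77 for Clock, -0.93 for Per2, -0.88 for Nr1d2, -0.76 for Per1 and -0.30 for Cry2.

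The livers were ordered relative to each other by 2 indices. The first is the mean log2 CPM of Arntl, Clock and Npas2 minus that of Per1, Per2 and Per3, and the second is the mean of Nr1d1 and Nr1d2 minus Cry1, each centred on the 8 livers. LP+/+ replicate 1 was highest on the first and lowest on the second, at 1.80 and -2.20. LPfl/+ replicate 2 followed at 1.54 and -0.83 and LPfl/+ replicate 1 at 0.76 and -0.62. The ratios of Arntl to Nr1d1 in CPM, which are not scaled to exon length, were 7.18, 2.79 and 1.64 in these 3. LP+/+ replicate 3 was near the centre at 0.26 and -0.18, and LP+/+ replicate 2 was at -0.54 and 0.24, with ratios of 0.913 and 0.597. The LP245/+ livers held the other side, replicate 2 at -0.53 and 0.83, replicate 3 at -1.33 and 1.18, and replicate 1 at -1.96 and 1.58, with ratios of 0.431, 0.348 and 0.135. The order of the 8 livers was the same on both indices except that LP+/+ replicate 2 and LP245/+ replicate 2 changed places.

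The positions were spread over the genotypes unevenly. LP+/+ livers spanned -0.54 to 1.80 on the first index, LPfl/+ livers 0.76 to 1.54 and LP245/+ livers -1.96 to -0.53, so LP+/+ covered the range of LPfl/+ and touched that of LP245/+. On the second index LP245/+ (0.83 to 1.58) did not overlap LP+/+ (-2.20 to 0.24) or LPfl/+ (-0.83 to -0.62). The series did not overlap on either index, at 0.76 to 1.80 for the second against -1.96 to 0.26 for the first on the first index. The SD within genotypes was 0.91 and 0.86 for the indices. Set beside the known order of crests, the livers of the second series lay on the Arntl-high side and the LP245/+ livers on the side where Nr1d1 and the Per messages are high, with LP+/+ replicates 2 and 3 between them on the second index. The indices give an order among these livers and no hour. As both gave nearly the same order, they cannot tell a rising from a falling part of the cycle.

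**Figure D3:**
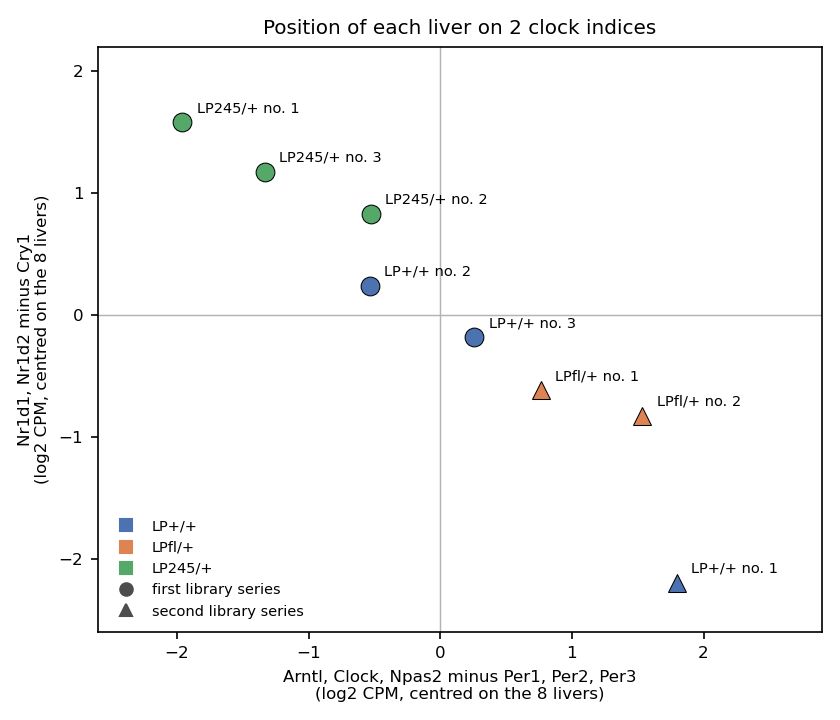
Position of each liver on the index of Arntl, Clock and Npas2 minus Per1, Per2 and Per3 (horizontal axis, log2 CPM centred on the 8 livers) and on the index of Nr1d1 and Nr1d2 minus Cry1 (vertical axis, same scale), with colours for genotype and symbols for library series. The livers run from LP245/+ replicate 1 at the upper left (-1.96, 1.58) to LP+/+ replicate 1 at the lower right (1.80, -2.20), and the 3 triangles of the second series fill the lower right.

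Other regulators of the clock were counted as a list of 19, of which all were tested. In the 3 genotype comparisons 0 passed edgeR's cutoff, and at an unadjusted p below 0.05 there were 4 higher and 2 lower in LP245/+ compared with LP+/+ (5.93% of all genes), 0 and 2 in LPfl/+ compared with LP+/+ (6.89% of all genes), and 3 and 0 in LP245/+ compared with LPfl/+ (8.51% of all genes). Between the series 1 of 19 passed, against 0.824% of all genes, and 1 was higher and 4 lower in the second at an unadjusted p below 0.05, against 14% of all genes. The one past the cutoff was Dbp, a PAR-bZIP activator that ARNTL and CLOCK drive through E-boxes. Dbp was at 0.815, 7.75 and 3.57 CPM in LP+/+, 2.29 and 1.82 in LPfl/+, compared with 23.7, 9.48 and 18.6 in LP245/+. This is a range of 29.1-fold, wider than that of any of the 10 loop genes, with LP+/+ replicate 1 lowest and the LP245/+ livers above all others. Its log2 fold change was -2.94 between the series (SE 0.59, adjusted p = 0.0321 by edgeR) and 2.09 (SE 0.59) in LP245/+ compared with LP+/+, which did not pass.

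Tef, a relative of Dbp, was at 34.7, 97.4 and 69.3 CPM in LP+/+, 67.7 and 52.4 in LPfl/+, against 139, 84.6 and 133 in LP245/+, with the same liver lowest. Ciart, a repressor of the activating pair, was at 0.442, 2.19 and 0.397 CPM in LP+/+, 0.752 and 0.428 in LPfl/+, compared with 3.71, 1.22 and 2.36 in LP245/+. Nfil3, which opposes DBP at D-boxes, was at 45, 49.7 and 48.8 CPM in LP+/+, 37.0 and 20.5 in LPfl/+, against 25.4, 37.6 and 44.6 in LP245/+, and its order did not follow that of Arntl or Nr1d1. Bhlhe41, an E-box repressor, was low throughout, at 0.236 and 0.265 CPM in LP+/+ replicates 2 and 3 at 0.251 and 0.321 in LPfl/+ and at 0.180 to 0.918 in LP245/+, and in LP+/+ replicate 1 it stood at the detection floor of 3 counts.

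Outputs of the clock were counted as a list of 15, which shares Dbp, Tef and Hlf with the regulators. In the genotype comparisons 0 passed the cutoff, with 5 higher and 0 lower in LP245/+ compared with LP+/+ at an unadjusted p below 0.05 by edgeR (5.93% of all genes), 0 and 1 in LPfl/+ compared with LP+/+ (6.89% of all genes), and 7 and 0 in LP245/+ compared with LPfl/+ (8.51% of all genes). Between the series 3 fell in the second, Dbp, Usp2 and Por, and 0 rose, with 9 lower and 3 higher at an unadjusted p below 0.05, against 14% of all genes. The median log2 fold change between the series was -0.42 over this list and -0.095 over the regulators, against -0.0029 over all genes. Usp2, a deubiquitinase, was at 1.53, 3.94 and 2.81 CPM in LP+/+, 2.15 and 1.04 in LPfl/+, compared with 8.52, 4.34 and 4.58 in LP245/+, a log2 fold change of -1.62 between the series (SE 0.36, adjusted p = 0.0484 by edgeR). Por, the electron donor of the cytochromes P450, was at 58.6, 144 and 125 CPM in LP+/+, 65.1 and 52.7 in LPfl/+, against 170, 131 and 124 in LP245/+, a log2 fold change of -1.24 between the series (SE 0.13, adjusted p = 5.2e-04 by edgeR). In Por the LP+/+ livers divided by series, with replicate 1 among the LPfl/+ values and replicates 2 and 3 among those of LP245/+. Wee1, a kinase that holds back mitosis, was at 2.0, 3.87 and 2.98 CPM in LP+/+, 2.15 and 3.18 in LPfl/+, compared with 5.36, 3.70 and 4.65 in LP245/+, with LP+/+ replicate 2 inside the range of LP245/+.

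**Figure D4:**
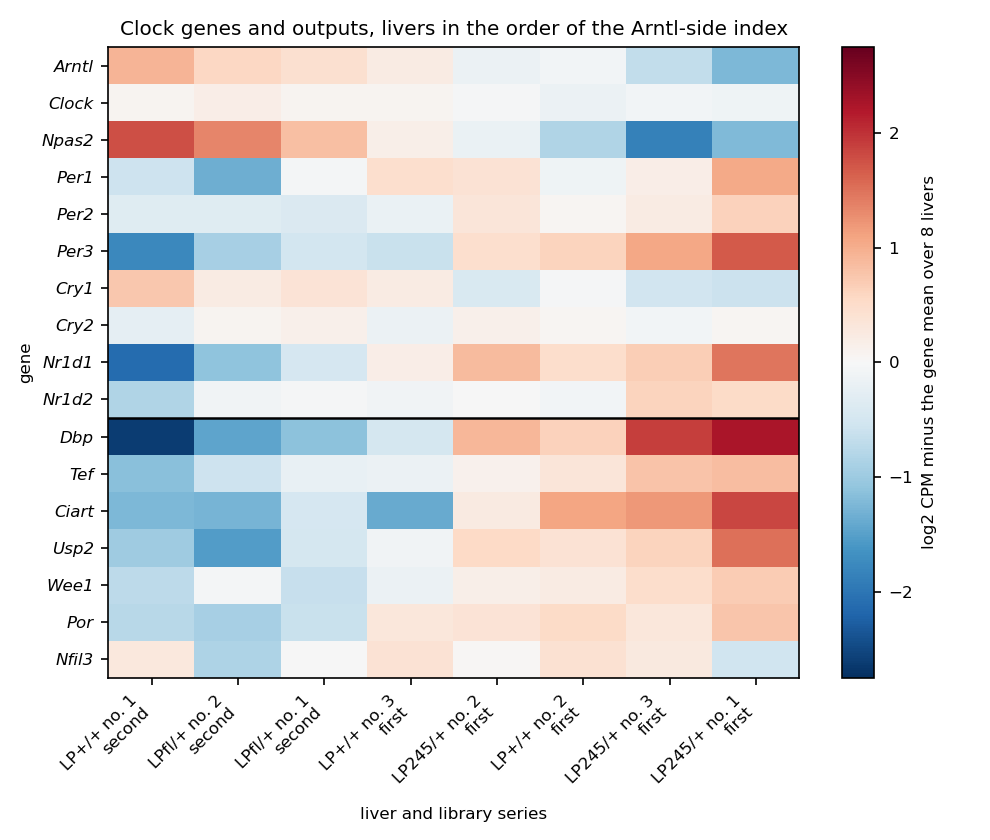
Log2 CPM minus the mean of the gene over the 8 livers (colour scale), for the 10 loop genes above the line and 7 regulators and outputs below it (rows), with livers (columns) in the order of the index of Arntl, Clock and Npas2 minus Per1, Per2 and Per3. Arntl, Npas2 and Cry1 run from high on the left to low on the right, Per3, Nr1d1, Dbp and Tef run the other way, and Clock and Cry2 stay near 0.

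Genes that respond to the systemic cues of the liver clock were read in the same livers. The shares of all genes to read their counts against are 0.00606%, 0% and 0% past edgeR's cutoff and 5.93%, 6.89% and 8.51% at an unadjusted p below 0.05 in LP245/+ compared with LP+/+, LPfl/+ compared with LP+/+ and LP245/+ compared with LPfl/+, and 0.824% and 14% between the series. Of 6 glucocorticoid-responsive genes, 0 passed the cutoff in the genotype comparisons and 1 fell in the second series, Zbtb16, a zinc finger repressor, at 21.8, 48.2 and 30.6 CPM in LP+/+, 21.3 and 16.8 in LPfl/+, against 64.7, 41.8 and 63.2 in LP245/+ (log2 fold change between the series -1.31, SE 0.22, adjusted p = 0.0154 by edgeR). At an unadjusted p below 0.05 this list had 1 higher and 1 lower, 0 and 1, and 1 and 2 in the genotype comparisons in the same order, and 1 higher and 2 lower in the second series. Fkbp5, a chaperone of the glucocorticoid receptor, was at 12.7, 31.3 and 34.6 CPM in LP+/+, 21.0 and 19.6 in LPfl/+, compared with 43.6, 23.6 and 43.3 in LP245/+. Tsc22d3, which encodes GILZ, was at 216, 174 and 182 CPM in LP+/+, 258 and 82.2 in LPfl/+, against 164, 165 and 234 in LP245/+, so the genes of this list did not share 1 order of livers. Of 6 temperature-responsive genes, 0 passed in the genotype comparisons and 1 fell in the second series, Hspa1b, an inducible heat shock chaperone, at 1.49, 2.66 and 2.71 CPM in LP+/+, 1.4 and 0.964 in LPfl/+, compared with 5.69, 6.10 and 4.58 in LP245/+ (log2 fold change -1.75, SE 0.33, adjusted p = 0.0222 by edgeR). At an unadjusted p below 0.05 there were 2 higher and 0 lower, 1 and 3, and 4 and 1 in the genotype comparisons, and 1 higher and 4 lower in the second series. Cirbp, which is induced by mild cold, was at 9.61, 5.76 and 7.64 CPM in LP+/+, 9.24 and 10.2 in LPfl/+, against 6.39, 7.43 and 5.15 in LP245/+, with the second series above the first. Of 6 genes that respond to feeding and fasting, 0 passed edgeR's cutoff in any comparison, and at an unadjusted p below 0.05 there were 0 higher and 1 lower, 0 and 1, and 1 and 1 in the genotype comparisons, and 1 higher and 1 lower in the second series. Pck1, the gluconeogenic enzyme raised by fasting, was lowest in LPfl/+ replicate 2 at 812 CPM and highest in LP245/+ replicate 3, and its groups overlapped. The median log2 fold change between the series was 0.03 for the glucocorticoid, -0.51 for the temperature and -0.056 for the feeding list. The part of these cues in the clock values was not tested.

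The genes whose pattern over the 8 livers was most like a loop gene were listed among 9932 genes with a mean log2 CPM of at least 2. With Arntl the 5 highest were Wdr91 (r = 0.98), Efnb1 (r = 0.97), Ttc5 (r = 0.97), 1110008P14Rik (r = 0.97) and Trim37 (r = 0.96). With Nr1d1 they were Dennd5b (r = 0.98), Golph3l (r = 0.98), Tbc1d10a (r = 0.97), Atxn7 (r = 0.96) and Herpud1 (r = 0.96). These are the extremes of many genes over 8 livers and are given as a description.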

How the data were processed

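The values are raw read counts for each gene, as the authors deposited them, from stranded total RNA libraries with paired 76-base reads, aligned to GRCm38 and counted with STAR (per the labels and the study's methods; the GENCODE release and the strand setting are not given in the sources used here). Symbols and exon lengths came from GENCODE M21, matched by identifier without its version, with 259 identifiers left without a symbol, and 0 columns were unmapped. No pair of libraries differed by less than sampling noise (lowest chi-square per gene 17.9 over 28 pairs).

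Counts of all 8 livers were fitted with edgeR 4.0.16 (TMM, filterByExpr, quasi-likelihood F test) in R 4.3.3, adjusted by Benjamini-Hochberg over 16496 genes. A difference was called past an absolute log2 fold change of 1 and an adjusted p of 0.05, with DESeq2 1.42.0 as the alternative. CPM used TMM-scaled totals. The members, gene lists, markers and tests were chosen with earlier results of these data known. Named genes were all 10 members, list genes past the cutoff, 12 list genes whatever their values (1 of them is not reported here), and the 5 nearest patterns to Arntl and to Nr1d1. Scripts were tested on simulated data. Permutations used scipy 1.17.1 and figures matplotlib 3.10.9. Alternatives changed the test, scaling, filter, livers, replicate block and library series.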

Additional observations from a re-analysis of the deposited data

How the results depend on the processing

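With DESeq2 in place of edgeR, the members past the threshold went from 0 to 1 in LP245/+ compared with LPfl/+, from 0 to 3 among the 3 genotypes and from 2 to 4 between the series. With no filter on low counts they were 1 in LP245/+ compared with LP+/+ (Arntl; 0.0661% of all genes), 4 in LP245/+ compared with LPfl/+ (Arntl, Npas2, Per3 and Nr1d1; 0.403%), 6 among the 3 genotypes (0.503%) and 4 between the series (1.04%). With only the 2 genotypes compared, 1 member passed in LP245/+ compared with LPfl/+ (Nr1d1; 0.317% of all genes), and with genotype as a covariate 1 passed between the series (Nr1d1; 1%). The cause was not tested. With library series as a covariate, the log2 fold change in LPfl/+ compared with LP+/+ reversed to -0.43 for Arntl, -0.68 for Npas2, 0.011 for Per1, 1.08 for Per3 and 1.37 for Nr1d1, and in LP245/+ compared with LPfl/+ to 0.0099 for Npas2, -0.046 for Per3, -0.66 for Nr1d1 and -0.29 for Nr1d2, values that rest on the LP+/+ livers as the only link. In the second series alone, an alternative chosen after seeing the data like the first series alone, it was -0.43, -0.68, 0.0069, 1.07 and 1.36 for the same 5 genes in LPfl/+ compared with LP+/+. Upper-quartile factors turned Cry2 between the series to 0.0016.

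Leaving out each liver in turn, the members past the threshold ranged from 0 to 1 in LP245/+ compared with LPfl/+ and among the 3 genotypes and from 0 to 3 between the series, and stayed at 0 in the comparisons of LP245/+ and LPfl/+ with LP+/+. The log2 fold change in LPfl/+ compared with LP+/+ crossed 0 for Arntl (-0.13 to 0.42), Npas2 (-0.090 to 1.36), Per3 (-0.81 to 0.37) and Cry1 (-0.21 to 0.20), as did that of Cry2 between the series (-0.091 to 0.10). In LP245/+ compared with LP+/+ every member kept its direction under all alternatives run. The correlation of Nr1d1 with Nr1d2 ranged from 0.62, without LP+/+ replicate 1, to 0.87, and those of Arntl with Nr1d1, Per3 and Npas2 stayed between -0.93 and -0.90, between -0.98 and -0.96 and between 0.86 and 0.98.

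Neither the labels nor the study pair animals by replicate number, and livers of the same number did not deviate together (r of their deviations from the group means between -0.08 and 0.03), so the replicate block was not used. With the block, 0 members passed in each genotype comparison, and it changed no call. DESeq2 size factors, a stricter filter that required 10 counts in each liver and the adjusted p alone moved no count of members, and the correlations and the liver positions held on the scale of counts over size factors. Depth gave Npas2, the member with the fewest counts, at least 25 counts in every liver.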

Other observations

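Genes outside the clock lists that separated the library series most strongly are given here as values, chosen after they were seen. Serpina3c, a serine protease inhibitor gene, had 1947, 1603 and 2008 counts in the 3 livers of the second series and 4 to 12 in the 5 livers of the first, a log2 fold change of 7.84. Gm8893 had 8650 to 10708 counts against 263 to 455, a log2 fold change of 4.93. Myom2, which encodes a protein of the muscle M-band, had 268 to 635 counts against 0 or 1. In each of these genes LP+/+ replicate 1 stood with the LPfl/+ livers and LP+/+ replicates 2 and 3 with the LP245/+ livers.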
